A study of Mus musculus with 10 samples.

Results

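The imprinted fetal growth factor gene Igf2, the chromatin architectural gene Hmga2 and the let-7 regulator gene Lin28b were described with 7 genes of the same growth and RNA-binding circuit. The set held 10 genes: Igf2, H19, Dlk1, Igf1r, Igf2r, Hmga2, Lin28b, Igf2bp1, Igf2bp2 and Igf2bp3. They were chosen by symbol from the 48516 genes with an identifier in the deposited table, and each symbol had 1 entry. In these 10 libraries Hmga2, Igf2bp2, Igf1r and Igf2r were present throughout, Lin28b, Igf2bp1 and Igf2bp3 were low, at no more than 1.21 FPKM in any library, and Igf2, H19 and Dlk1 were high in single libraries. None of the genes differed between liver metastasis and primary tumour beyond the spread between libraries.

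Oncofetal genes are active in the embryo, silent in most adult tissues and active again in some tumours. IGF2, a growth factor, signals through the receptor encoded by Igf1r and is taken up and degraded through the receptor encoded by Igf2r. Mature let-7 microRNAs pair with sites in the 3′ untranslated regions (UTRs) of Hmga2, Lin28b and the Igf2bp genes and lower their output, while LIN28B blocks the maturation of let-7 precursors. H19 is a maternally expressed long noncoding RNA that shares enhancers and an imprinting control region with Igf2, and Dlk1 is a paternally expressed gene of another imprinted cluster, which also holds the noncoding RNA Meg3.

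The libraries were made from polyadenylated RNA of FVB mouse pancreatic tumour cells. In this model, cells of the line Ink4a.1 were placed in the pancreas of INK4.1syn_Luc mice and liver metastases were taken into culture. The 5 liver metastasis libraries carry the numbers 25, 35, 36, 38 and 72 and the line names Met25 to Met72, and the 5 primary tumour libraries carry the same numbers and the line name Ink4a. All samples were untreated cultures grown close to confluence, per the labels. The alleles, age and sex behind the groups are not given in the sources used here. Every sample derives from 1 injected line, the design text speaks of metastases from 4 mice although 5 metastasis numbers are labelled, and it names the parental line as the other sample. Nothing says that the primary samples came from separate animals, so p-values cover only sample-to-sample spread, some of which may be technical.

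Values are FPKM (fragments per kilobase of transcript, scaled to library depth). The estimated depth was 15.7 M fragments in metastasis 25 and between 24.0 and 30.4 M in the other 9 libraries. The cultures labelled as tumour lines did not all look like pure lines. For 10 leukocyte markers the summed level ran from 2.45 to 3.30 FPKM across the 4 libraries numbered 35 and 36. It ran from 992 to 6701 FPKM across the 6 libraries numbered 25, 38 and 72. Each of the 10 markers separated the sets without overlap. Epcam and Cdh1, which define epithelium, were at most 0.06 and 0.29 FPKM in the 4 libraries, whereas Krt8 and Krt18 were present in all 10. The numbers are therefore given in these sets below. The sets were seen in these data and are described without a test. In bulk samples, fewer cells of a type and less RNA per cell cannot be told apart.

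The microRNAs are shown first, because 7 of the 10 genes hold a letter match to the let-7 seed in their longest annotated 3′ UTR. Among 1679 mature mouse microRNA names of RefSeq on GRCm38.p6, 11 names from 13 loci share the seed (bases 2 to 8) of let-7. The lines below give 4 of them, with the seed in capitals, followed by both products of the hairpin within H19, whose seeds no other mature name shared.
let-7a-5p: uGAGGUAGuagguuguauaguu
let-7g-5p: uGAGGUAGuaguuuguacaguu
let-7i-5p: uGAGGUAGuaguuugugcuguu
miR-98-5p: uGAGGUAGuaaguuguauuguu
miR-675-5p: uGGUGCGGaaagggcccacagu
miR-675-3p: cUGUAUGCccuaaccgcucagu
The 4 members of the let-7 family differ outside the seed. The H19 products lie on the minus strand, at chr7:142577112-142577133 and chr7:142577078-142577099.

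The letters CTACCTC, the reverse complement of the let-7 seed, were searched on the transcript strand in the longest annotated 3′ UTR of each protein-coding gene (GENCODE M21, GRCm38). At least 1 copy was found in 1897 of 21021 genes (9.02%), with a median UTR length of 961 bases, and at least 4 copies in 12 genes (0.0571%). Hmga2, Lin28b and Igf2bp1 were among those 12, with 4 copies each. Hmga2 held them in 3014 bases, Lin28b in 4445 bases and Igf2bp1 in 6337 bases. Igf1r held 2 copies, Igf2bp2, Igf2bp3 and Igf2r held 1 each, and Igf2 and Dlk1 held none in UTRs of 3050 and 2976 bases. A match of letters is a description and not a measured site of action. The matches of Hmga2, Lin28b and the 3 Igf2bp genes are shown 5′ to 3′ with the match in capitals, since these genes carry the contrast between an abundant and a nearly silent let-7 target. All lie on the minus strand.
Hmga2 match 1, chr10:120364223-120364246: gccgacattcaatttCTACCTCag
Hmga2 match 2, chr10:120362986-120363009: ccccactcctcaataCTACCTCtg
Hmga2 match 3, chr10:120362548-120362571: ctgatttgcaaggaaCTACCTCca
Hmga2 match 4, chr10:120361690-120361713: aatcaaaacacactaCTACCTCtt
Lin28b match 1, chr10:45381021-45381044: acccgggcgggaagtCTACCTCat
Lin28b match 2, chr10:45378647-45378670: tatacttgttagtaaCTACCTCtg
Lin28b match 3, chr10:45378475-45378498: gtttacagcacatggCTACCTCcc
Lin28b match 4, chr10:45377059-45377082: aaatgatggcaccgaCTACCTCtt
Igf2bp1 match 1, chr11:95961777-95961800: gctgtgcgaagtaaaCTACCTCaa
Igf2bp1 match 2, chr11:95959356-95959379: cagcagtgctattaaCTACCTCag
Igf2bp1 match 3, chr11:95958762-95958785: gtataaatggatgaaCTACCTCag
Igf2bp1 match 4, chr11:95958139-95958162: acttttggttttaatCTACCTCtt
Igf2bp2 match 1, chr16:22059472-22059495: acacacaaataaaagCTACCTCag
Igf2bp3 match 1, chr6:49086786-49086809: tgcatttttactcaaCTACCTCag
An A follows the match in 1 of 4 copies of Hmga2, 1 of 4 of Lin28b and 3 of 4 of Igf2bp1. The single copies of Igf2bp2 and Igf2bp3 are also followed by an A. Mature microRNAs were not measured in these libraries, and the 5 let-7 hairpin genes looked up were listed at 0 in all 10.

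**Figure D1:**
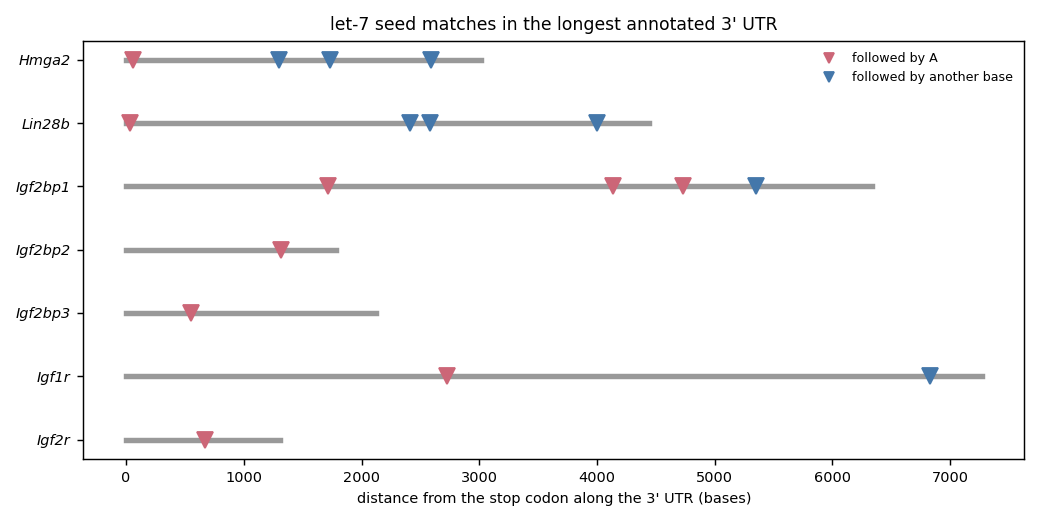
Position of each CTACCTC match (triangles, coloured by whether an A follows) along the longest annotated 3′ UTR (grey bars, in bases from the stop codon) of the 7 genes that hold one. Hmga2, Lin28b and Igf2bp1 hold 4 matches each, and the first match of Hmga2 and of Lin28b lies within 58 bases of the stop codon.

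Hmga2 (ENSMUSG00000056758.14, chr10:120361275-120476469), whose protein bends DNA in embryonic and tumour cells, was the most abundant of the 10 genes in 8 libraries and was present in all of them. It was 224 FPKM in primary 35, 217 in metastasis 35, 209 in primary 36 and 285 in metastasis 36. The remaining libraries held 116 FPKM in primary 25, 65.0 in metastasis 25, 188 in primary 38, 98.1 in metastasis 38, 175 in primary 72 and 156 in metastasis 72. All 4 libraries of numbers 35 and 36 thus lay above the other 6, and metastasis 25 was lowest. Hmga2 stood between rank 336 (metastasis 36) and rank 1795 (metastasis 25) among the genes of its library. Within pairs of the same number, the metastasis was lower in 4 of 5, by 0.83 on the log2(FPKM + 1) scale for number 25 and by 0.93 for number 38. For numbers 72 and 35 it was lower by only 0.16 and 0.05, and for number 36 it was higher by 0.45. Metastases 25 and 38 held the highest hepatocyte and skeletal muscle marker sums, at 33371 and 5761 FPKM. The part of such RNA in the Hmga2 differences was not tested. Antisense genes overlap the locus, and whether counting used strand is not stated.

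Lin28b (ENSMUSG00000063804.7, chr10:45376620-45470201), which encodes the let-7 blocking protein, was at most 0.0878 FPKM. The 10 values were whole multiples, within 0.03, of what 1 fragment is worth for this gene. They corresponded to 13 fragments in primary 72, 8 in metastasis 35, 4 in metastasis 36 and 1 each in primary 35, primary 36 and metastasis 38. The other 4 libraries held 0 fragments, a count that still allows up to 3. The libraries at 0 all belonged to numbers 25, 38 and 72, as did the highest one, so the sets overlapped. The paralogue Lin28a, named here after its values were seen, was at most 0.182 FPKM.

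The Igf2bp genes encode RNA-binding proteins that hold and stabilise mRNAs, Igf2 mRNA among them. Only Igf2bp2 of the 3 was above 2 FPKM in any library. Igf2bp2 (ENSMUSG00000033581.16, chr16:22059009-22163299) was 37.4 FPKM in primary 35, 37.3 in metastasis 35, 43.7 in primary 36 and 54.5 in metastasis 36. For the other numbers it was 22.0 FPKM in primary 25, 25.4 in metastasis 25, 37.3 in primary 38, 14.0 in metastasis 38, 32.9 in primary 72 and 42.8 in metastasis 72. The sets overlapped, with the lowest values in metastasis 38 and both libraries of number 25.

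Igf2bp1 (ENSMUSG00000013415.9, chr11:95957163-96008055) was 0.0615 FPKM in primary 35, 0.934 in metastasis 35, 0.612 in primary 36 and 1.21 in metastasis 36. In the other 6 libraries it was at most 0.0483 FPKM, with a 0 in metastases 25 and 38. Igf2bp1 was thus detected mainly where the leukocyte markers were near 0, and in both pairs 35 and 36 it was higher in the metastasis. These values stand for about 6 to 140 fragments in the 4 libraries. The lowest of them, primary 35, and the highest of the other 6, primary 38, both rest on about 6 fragments, so the absence of overlap for Igf2bp1 is within counting error. Igf2bp3 (ENSMUSG00000029814.10, chr6:49073795-49214957) was highest in metastasis 38 at 0.611 FPKM and lowest in metastasis 35 at 0.00995 FPKM, about 80 and 1 fragments. Its high libraries were found in both sets and both groups, so it followed neither.

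**Figure D2:**
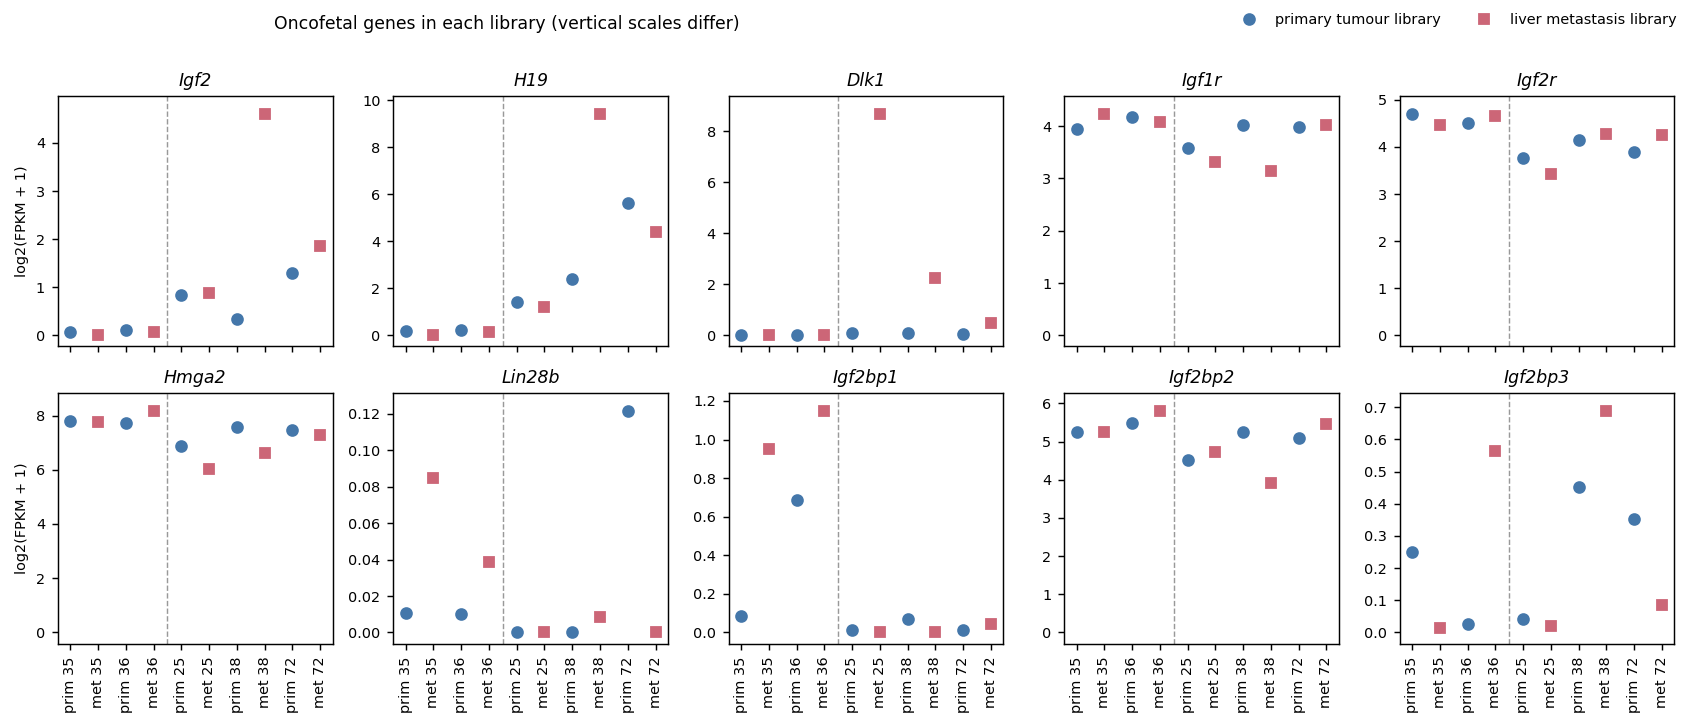
Level of each of the 10 genes as log2(FPKM + 1) in each library (circles, primary tumour; squares, liver metastasis), with a dashed line between numbers 35 and 36 and the other numbers; vertical scales differ. Hmga2 lies above in the 4 libraries on the left, between 209 and 285 FPKM, and H19, Igf2 and Dlk1 are near 0 there.

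Igf2 (ENSMUSG00000048583.16, chr7:142650766-142670356), the ligand, reached 1 FPKM in 3 of 10 libraries. It was 0.0480 FPKM in primary 35, 0.0112 in metastasis 35, 0.0786 in primary 36 and 0.0460 in metastasis 36. For the other numbers it was 0.781 FPKM in primary 25, 0.838 in metastasis 25, 0.269 in primary 38, 23.2 in metastasis 38, 1.44 in primary 72 and 2.62 in metastasis 72. The 4 libraries of numbers 35 and 36 all lay below the other 6, and metastasis 38 stood far above the rest. An antisense gene, Igf2os, and the hairpin of miR-483 overlap the locus.

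H19 (ENSMUSG00000000031.15, chr7:142575529-142578143), the neighbour of Igf2, spanned the widest range of the 7 genes detected in every library. It was 0.122 FPKM in primary 35, 0.0236 in metastasis 35, 0.177 in primary 36 and 0.104 in metastasis 36. The other libraries held 1.64 FPKM in primary 25, 1.29 in metastasis 25, 4.23 in primary 38, 680 in metastasis 38, 48.9 in primary 72 and 20.03 in metastasis 72. Here too the 4 libraries lay below the 6, and metastasis 38 was highest. Metastasis 38 was the only metastasis above the primary of its number.

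Skeletal muscle transcripts moved with the H19 and Igf2 values in some of these libraries. The summed level of 6 skeletal muscle markers reached 5761 FPKM in metastasis 38 and 438 FPKM in primary 72, and no more than 32.0 FPKM in each of the other 8. The sum of 5 muscle progenitor markers, Pax7, Myod1, Myog, Myh3 and Myh8, was 58.7 FPKM in metastasis 38, 2.05 in primary 72 and at most 0.387 elsewhere. From primary 72 to metastasis 38, H19 was 13.9 times and Igf2 16.1 times as high, and the 6 muscle markers were between 10.3 and 17.7 times as high. The 5 progenitor markers were between 21.8 and 46.5 times as high. Markers of other cells changed as well: the 10 leukocyte markers stood at 2.22 to 11.6 times their primary 72 level. The 10 fibroblast markers stood at 0.565 to 12.8 times that level. Metastasis 72 held 20.03 FPKM of H19 with a muscle sum of 4.16 FPKM, so a high H19 value also occurred where the muscle markers were low. Igf2 too was higher in metastasis 72, at 2.62 FPKM, than in primary 72, at 1.44 FPKM. The epithelial list (Krt8, Krt18, Krt19, Epcam and Cdh1) was lowest in metastasis 38, with a sum of 86.0 FPKM against 267 to 713 FPKM in the other 9. The part of muscle RNA, or of RNA from these other cells, in the H19 and Igf2 values was not tested.

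Dlk1 (ENSMUSG00000040856.17, chr12:109452823-109463336), a transmembrane protein of fetal liver and other immature tissues, was listed at 0 in all 4 libraries of numbers 35 and 36. It was 406 FPKM in metastasis 25, 3.80 in metastasis 38 and 0.396 in metastasis 72. In primaries 25, 38 and 72 it was 0.0542, 0.0632 and 0.0308 FPKM, about 1 or 2 fragments each. Within these 3 numbers each metastasis was higher than its primary, and metastasis 25 stood alone.

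Metastasis 25 was also the library richest in hepatocyte transcripts, with a summed level of 33371 FPKM for 8 markers. Primary 72 was next, at 3932 FPKM, and held 436 FPKM of the albumin gene Alb with Dlk1 at 0.0308 FPKM. The erythroid markers were likewise highest in metastasis 25, where their sum was 28871 FPKM against 0.379 to 863 FPKM in the other 9. Meg3 and Rian, noncoding RNAs of the Dlk1 cluster, were not confined to that library. Meg3 was 132 FPKM in metastasis 25 and 112 FPKM in metastasis 38, and Rian was 32.7 and 43.3 FPKM. The part of liver or blood RNA in the Dlk1 value was not tested.

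**Figure D3:**
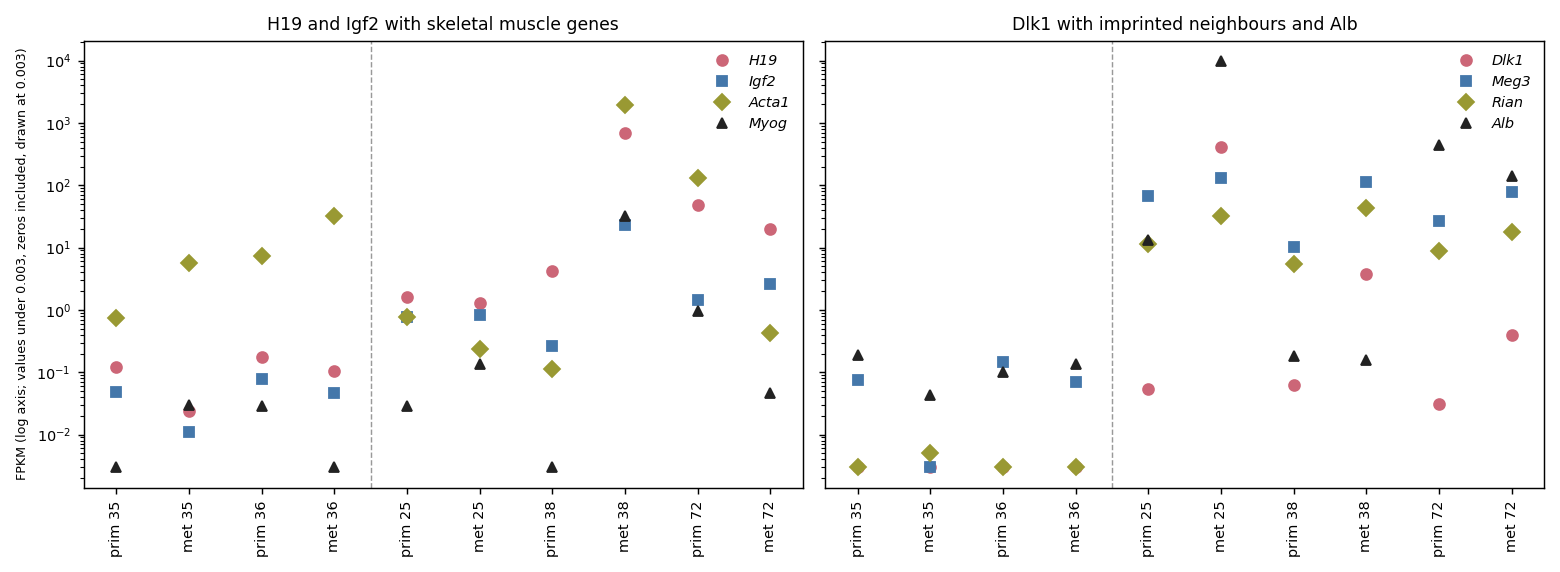
FPKM on a log axis in each library for H19 and Igf2 with the muscle genes Acta1 and Myog (left) and for Dlk1 with Meg3, Rian and Alb (right); values under 0.003, zeros included, are drawn at 0.003. Metastasis 38 is highest for all 4 genes on the left, and metastasis 25 is highest for Dlk1 and Alb on the right, where the Dlk1 values of 0 in numbers 35 and 36 lie under the other points.

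The receptor genes varied far less. Igf2r (ENSMUSG00000023830.13, chr17:12682406-12868143) was 24.9 FPKM in primary 35, 20.98 in metastasis 35, 21.6 in primary 36 and 24.2 in metastasis 36. It was 12.6 FPKM in primary 25, 9.70 in metastasis 25, 16.7 in primary 38, 18.4 in metastasis 38, 13.7 in primary 72 and 18.1 in metastasis 72. The 4 libraries of numbers 35 and 36 lay above the other 6. The locus given for Igf2r spans 185738 bases against 87259 in GENCODE M21 and overlaps the antisense gene Airn, so reads of both may not be separated. Airn, named for this overlap, lay the other way, between 4.78 and 5.59 FPKM in the 4 libraries and between 5.76 and 18.2 FPKM in the 6.

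Igf1r (ENSMUSG00000005533.10, chr7:67952827-68233668) was 14.5 FPKM in primary 35, 17.8 in metastasis 35, 17.1 in primary 36 and 15.8 in metastasis 36. It was 10.9 FPKM in primary 25, 9.01 in metastasis 25, 15.2 in primary 38, 7.78 in metastasis 38, 14.7 in primary 72 and 15.3 in metastasis 72. The sets overlapped, and the highest library was 2.29 times the lowest. In metastasis 38, where Igf2 was highest, Igf1r was lowest. Igf2bp2 and the sum of the epithelial list were also lowest in that library, and the skeletal muscle sum was highest. A relation between Igf2 and Igf1r was not tested.

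In all, 6 of the 10 genes had no overlap between the 4 libraries of numbers 35 and 36 and the other 6. Hmga2, Igf2r and Igf2bp1 lay above and Igf2, H19 and Dlk1 below. For Dlk1, primaries 25, 38 and 72 held about 1 or 2 fragments each, against 0 in the 4 libraries. Its absence of overlap, like that of Igf2bp1, is thus within counting error. Among the 13152 genes that reached 1 FPKM in 5 or more libraries, 43.8% had no overlap between these sets, 24% above and 19.9% below. Only Hmga2, Igf2bp2, Igf1r, Igf2r and H19 passed that minimum, H19 through its values in numbers 25, 38 and 72 alone. A gene high only in the 4 libraries cannot pass it, as Igf2bp1 did not, so the counts above and below are partly set by the minimum. Such a separation was thus common among genes at large, and nothing particular to the 10 genes is read from it.

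The comparison of the study's groups asked whether liver metastases differ from primary tumours of the same line. Hmga2 averaged 164 ± 88.9 FPKM across metastases against 182 ± 41.7 FPKM across primaries (mean ± SD, n = 5 each). In the limma fit on log2(FPKM + 1), the log2 fold change of Hmga2, metastasis over primary, was −0.30 (SE 0.39, 95% interval −1.16 to 0.55, adjusted p = 0.9998). The intervals of the other genes above the minimum also spanned 0. For Igf2bp2, at 34.8 ± 15.6 against 34.6 ± 8.04 FPKM, the log2 fold change was −0.09 (SE 0.35, −0.86 to 0.68). For Igf1r, at 13.1 ± 4.45 against 14.5 ± 2.25 FPKM, it was −0.18 (SE 0.26, −0.75 to 0.39). For Igf2r, at 18.3 ± 5.37 against 17.9 ± 5.23 FPKM, it was 0.01 (SE 0.28, −0.61 to 0.63). H19 averaged 140 ± 302 FPKM across metastases against 11.0 ± 21.2 FPKM across primaries, and its log2 fold change was 1.07 (SE 1.79, −2.88 to 5.02). Limma gave each of the 5 genes an adjusted p of 0.9998, so none differed beyond the spread between libraries.

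Across all 13152 genes, limma called 0 (0%) in this comparison, with 31 genes (0.236%) at an unadjusted p under 0.05, a share far below that threshold. The fit held no term for the tumour number or the sets of numbers, so their differences count as spread. The lack of calls therefore does not show equal levels. For H19 the direction rested on metastasis 38, without which the log2 fold change was −0.52. No gene of the 10 had all metastases above or all below the primaries, against 0.0988% of all genes tested. None was higher or lower in the metastasis of all 5 numbers, against 4.45% of all genes tested (2.36% higher and 2.09% lower). The genes under the minimum were fitted with every gene above 0 in at least 1 library, 27673 in all. There the log2 fold change was 0.95 (SE 0.82) for Igf2, 2.24 (SE 1.51) for Dlk1, 0.25 (SE 0.26) for Igf2bp1, 0.05 (SE 0.16) for Igf2bp3 and −0.002 (SE 0.028) for Lin28b, each with a limma adjusted p of 0.9999. The values of Igf2 and Dlk1 rested on 1 library each: without metastasis 38 that of Igf2 was 0.18 (SE 0.43), and without metastasis 25 that of Dlk1 was 0.64 (SE 0.43).

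Within numbers 35 and 36 alone, the log2 fold change of Hmga2 was 0.20 (SE 0.16, limma adjusted p = 0.7823), and it was 0.0007 without metastasis 36 and 0.40 without metastasis 35. Within numbers 25, 38 and 72 it was −0.64 (SE 0.39, limma adjusted p = 0.9994), and −0.33 without metastasis 25. The difference between both effects was −0.84 (SE 0.52, limma adjusted p = 0.9999), so a different response of Hmga2 was not shown. Limma called 0 genes (0%) in each of these 3 comparisons, with 800, 145 and 133 genes at an unadjusted p under 0.05. The remaining genes above the minimum had log2 fold changes from −0.11 (H19) to 0.16 (Igf2bp2) within numbers 35 and 36. Within the other numbers they ran from −0.36 (Igf1r) to 1.86 (H19).

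**Figure D4:**
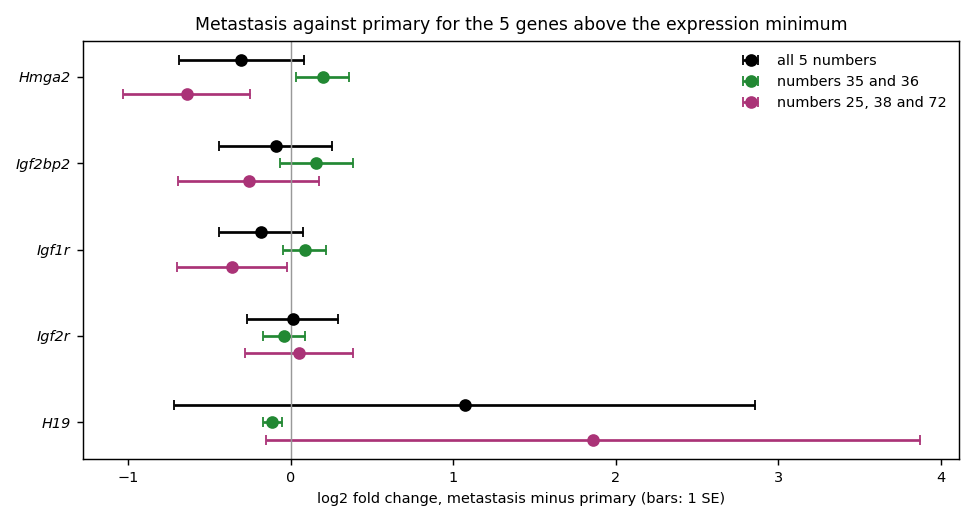
Log2 fold change of metastasis over primary with 1 standard error for the 5 genes above the expression minimum, from limma fits on all 5 numbers, numbers 35 and 36, and numbers 25, 38 and 72. The estimate of Hmga2 is 0.20 in numbers 35 and 36 and −0.64 in the others, and the bars of H19 are the widest in the fits on all numbers and on numbers 25, 38 and 72.

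The wider pathways were read from lists of related genes. Of 23 genes of the insulin-like growth factor system, 18 were above the minimum, of which 7 lay below and 1 above in numbers 35 and 36 (38.9% and 5.56%, beside 19.9% and 24% of all genes tested). The minimum bears on these counts as it does above. Most of those below, Igf1, Igfbp2, Grb10 and Igfbp5 among them, passed through the other 6 libraries alone. Limma called 0 of the 18 genes in any comparison. Igf1, the other growth factor of the family, was at most 0.489 FPKM in the 4 libraries and between 9.24 and 180 FPKM in the 6, highest in metastasis 25. Igfbp2, a carrier of both growth factors, was listed at 0 in the 4 libraries and was between 2.02 and 146 FPKM in the 6. Grb10, an adaptor that dampens receptor signalling, was at most 0.00864 FPKM against 0.702 to 15.7 FPKM. Single libraries led for the other 3 genes named. The insulin gene Ins2 was 5163 FPKM in primary 25, the hepatic carrier gene Igfbp1 was 2265 FPKM in metastasis 25, and Igfbp5, another carrier, was 99.5 FPKM in metastasis 38. Ins2 and Igfbp1 did not pass the minimum. The sum of 7 pancreas islet and acinar markers, Ins2 among them, was 6568 FPKM in primary 25. It was no more than 18.7 FPKM in any other library, and each marker was highest in primary 25. The part of pancreas or liver RNA in these values was not tested.

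Of 24 imprinted genes of growth and placenta, 13 were above the minimum, of which 8 lay below in numbers 35 and 36 and none above (61.5% below, beside 19.9% of all genes tested). Of those 8, all but Dcn and Airn likewise passed through the other 6 libraries alone. Limma called 0 of the 13 genes in any comparison. Meg3 was at most 0.146 FPKM in the 4 libraries and between 10.4 and 132 FPKM in the 6. Rian was at most 0.00500 FPKM against 5.46 to 43.3 FPKM, and Mirg, also a noncoding RNA of that cluster, was at most 0.0873 FPKM against 0.266 to 8.55 FPKM. Dio3, the deiodinase gene at the end of the cluster, was listed at 0 against 0.261 to 12.2 FPKM. Thus Dlk1 and the 4 genes named from its cluster were all lowest in numbers 35 and 36. The marker sums of several cell types were lower there too. The leukocyte sum was between 2.45 and 3.30 FPKM against 992 to 6701 FPKM in the other 6. The endothelial sum was between 3.84 and 8.31 FPKM against 20.4 to 93.5 FPKM. The fibroblast marker sum was between 572 and 728 FPKM against 888 to 2296 FPKM in the other 6. Among those 6 it was lowest in metastasis 25, where Dlk1 and Meg3 were highest. The single fibroblast markers were split in metastasis 25. Col1a1, Col1a2, Col3a1, Fap and Postn were lowest of the 6 there. Pdgfra and Pdgfrb were highest of all libraries there, at 85.8 and 18.7 FPKM. The fibroblast proteoglycan gene Dcn was between 0.973 and 19.3 FPKM against 31.4 to 403 FPKM. Of the 10 fibroblast markers, 4 lay below in numbers 35 and 36, Dcn with the largest difference, and 6 overlapped, Col1a1 and Lum among them. The part of any of these cell types in the imprinted values was not tested.

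Of 17 genes of the let-7 pathway, 16 were found and 9 were above the minimum, of which 3 lay above and 1 below in numbers 35 and 36 (33.3% and 11.1%, beside 24% and 19.9% of all genes tested). Limma called 0 of them. Xpo5, the nuclear exporter of microRNA precursors, ran from 16.9 to 23.2 FPKM in the 4 libraries and from 2.77 to 10.1 FPKM in the 6. Ago2, the slicing Argonaute, was between 17.3 and 22.1 FPKM against 4.59 to 16.1 FPKM, and Dgcr8, the partner of Drosha, was between 13.2 and 14.1 FPKM against 8.72 to 12.6 FPKM. Zcchc11 (Tut4), a uridylyl transferase that works with LIN28 on let-7 precursors, lay below, between 3.46 and 6.66 FPKM against 8.07 to 25.9 FPKM. Dicer1 and Drosha, the ribonucleases of the pathway, overlapped between the sets.

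Of 27 further genes known as let-7 targets, 23 were above the minimum, of which 9 lay above in numbers 35 and 36 as Hmga2 did, and 1 lay below. Limma called 0 of them. Ccnd1, a G1 cyclin, ran from 638 to 767 FPKM in the 4 libraries and from 81.6 to 414 FPKM in the 6. Ccnd2 was between 25.3 and 47.1 FPKM against 1.03 to 22.0 FPKM, and Myc between 73.5 and 95.6 FPKM against 26.8 to 71.3 FPKM. None of these 3 held a CTACCTC match in the UTR searched, while several others of the 9 did. The cytokine gene Il6 lay below, at most 0.0179 FPKM against 0.460 to 6.95 FPKM, and Gdf6, a growth and differentiation factor, overlapped. The share above, 39.1% of 23 genes, stands beside 24% of all genes tested.

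Of 20 other genes often called oncofetal or stem-like, 11 were above the minimum, of which 6 lay below in numbers 35 and 36 and none above (54.5% below, beside 19.9% of all genes tested). Limma called 0 of them. Of those below, all but Tspan8 passed the minimum through the 6 libraries of numbers 25, 38 and 72 alone. The minimum bears on this share as it does above. Mdk and Ptn, heparin-binding growth factors of the embryo, were at most 0.267 and 0.449 FPKM in the 4 libraries and between 1.90 and 38.7 and between 2.76 and 24.4 FPKM in the 6. Epcam, Prom1 and Tspan8, all surface proteins of epithelium, also lay below, and Cd24a overlapped. Across the 5 lists the median log2 fold change of metastasis over primary ran from −0.08 for the let-7 targets to 0.12 for the imprinted genes, beside 0.01 for all genes tested.

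**Figure D5:**
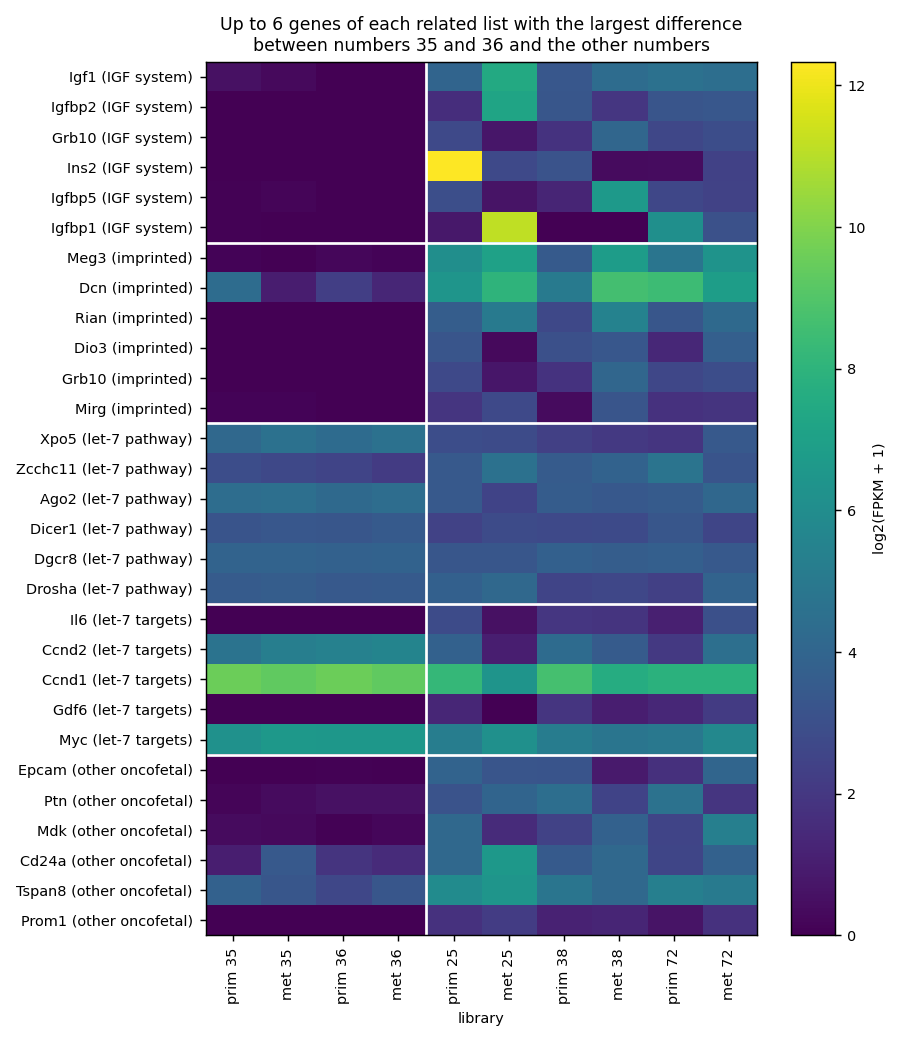
Level as log2(FPKM + 1) (colour) in each library (columns) of up to 6 genes of each list with the largest difference between numbers 35 and 36 (left of the white line) and the other numbers; Grb10 is on 2 lists. Igf1, Meg3 and Rian are near 0 on the left, and Xpo5, Ccnd1 and Myc are higher there.

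Genes whose pattern over the 10 libraries was most like that of a member were found by the mean absolute difference of centred log2(FPKM + 1) values. For Hmga2 these were Galnt7, Klf4 and Frmd4a, each at 0.17, where the median over 11376 genes was 0.60. For Igf2bp2 they were Ackr3, Smg5 and Tbl1x, each at 0.20 beside a median of 0.56. For Igf2 they were Abi3bp at 0.25, Lmcd1 at 0.30 and Atp1b2 at 0.31, beside a median of 1.05. All 3 genes like Igf2 were highest in metastasis 38, at 17.0, 35.8 and 18.6 FPKM. They were picked for likeness to Igf2, itself highest there, so this peak is no separate result. Igf2bp3 varied little on this scale, and Ttbk2, Yipf5 and Mfsd8 came within 0.12 of it.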

How the data were processed

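The authors deposited FPKM for the 10 libraries in 1 table. Salmon, edgeR and the mouse build mm8 are named in the submitters' processing notes, without version or role, and which program computed the values is likewise not given in the sources used here. Of the identifiers, 40599 were found in GENCODE M21 with 99.97% inside the locus given, so coordinates are for GRCm38, counted from 1. Another 35 lines without an identifier were left out. The members and all lists were chosen with earlier results of these data known. All 10 members are described. Related genes are named by list, at most 6 each, by the largest difference of median log2(FPKM + 1) between numbers 35 and 36 and the other numbers. A gene of the let-7 target list that this rule takes is not reported here.

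Count tests were not used on FPKM. Genes that reached 1 FPKM in 5 or more libraries were kept, and log2(FPKM + 1) was compared with limma 3.58.1 in R 4.3.3 (intensity trend, Benjamini-Hochberg adjustment at 0.05), which understates fold changes of low genes. The procedure was tested on simulated data. The groups share tumour numbers in the labels. Deviations from the group means correlated within numbers at 0.39 (25), 0.86 (35), 0.89 (36), 0.68 (38) and 0.23 (72). Each was over 0.1, which was taken as pairing, and a block was an alternative. Only group means were removed, so the difference between the sets of numbers also enters these correlations. Correlations across numbers were not computed, so pairing by number was not shown. Depth was estimated from the smallest steps of single-exon genes, and it would be too low for metastasis 25 if that library, whose FPKM sum was 939415 against at most 653161 elsewhere, was scaled differently. An exact 0 can be a failed estimate: 21 values in 6 libraries were 0 where the other 9 libraries held at least 1 FPKM. Alternatives were a pseudocount of 0.1, no minimum, median ratio scaling, quantile normalization, no trend, the replicate block and omission of each library.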

Additional observations from a re-analysis of the deposited data

Results flagged for a closer look

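Within each group of 5 libraries, the highest or lowest value of each gene was compared with its nearest neighbour, as a share of the range of the group. Of 20 groups tested in FPKM, 6 were past Dixon's critical value of 0.71, which chance passes in about 1 of 20 groups of normally distributed values. FPKM are skewed, and the chance rate for such values was not measured. Igf2 in metastasis 38 (23.2 FPKM) and H19 in metastasis 38 (680 FPKM) stood apart from the other metastases, and H19 in primary 72 (48.9 FPKM) stood apart from the other primaries. Dlk1 stood apart in metastasis 25 (406 FPKM). Igf2bp1 in primary 36 (0.612 FPKM) and Lin28b in primary 72 (0.0878 FPKM) stood apart among the primaries at low levels. On the log2(FPKM + 1) scale 3 of the 6 remained past that value, Dlk1, Igf2bp1 and Lin28b.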

How the results depend on the processing

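In the comparison of all numbers, every alternative run gave 0 calls, and so did each alternative for numbers 25, 38 and 72. Without an expression minimum, 135 genes were called within numbers 35 and 36 (24 higher and 111 lower), where 2 residual degrees of freedom remain, and 4 in the difference between the sets of numbers (2 in each direction); the causes were not tested, and none of the 10 genes was among them. The replicate block changed no call: the log2 fold change of H19 stayed at 1.07 (SE 1.16) and that of Hmga2 at −0.30 (SE 0.23), with limma adjusted p of 0.9994. Omission of 1 library at a time moved the log2 fold change of H19 between −0.52 (without metastasis 38) and 1.99, that of Igf2bp2 between −0.28 and 0.19, that of Hmga2 between −0.55 and −0.02 (without metastasis 25), that of Igf1r between −0.30 and −0.03, and that of Igf2r between −0.10 and 0.21. For the genes under the minimum, fitted without one and chosen as an alternative after seeing the data, it lay between 0.18 and 1.32 for Igf2, 0.64 and 2.81 for Dlk1, 0.07 and 0.38 for Igf2bp1, −0.053 and 0.12 for Igf2bp3, and −0.017 and 0.021 for Lin28b. Omission of metastases 25 and 38 together, chosen after seeing the data, turned the direction to −0.44 for H19, 0.38 for Igf2bp2, 0.26 for Hmga2 and 0.17 for Igf1r. Quantile normalization gave −0.000299 for Igf2r. The number of genes without overlap between the sets was 5 under quantile normalization and 6 to 7 with 1 library left out. Levels under about 0.1 FPKM rest on few fragments.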
